A study of Mus musculus with 16 samples.

Results

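The 9 guide-arm miRNAs of the miR-17-92 and miR-106b-25 clusters were followed in small RNA libraries of plasma small extracellular vesicles (pEVs). They were chosen by name, as the arm usually loaded into Argonaute from each hairpin, and they are 9 of the 817 mature miRNA entries and of the 15159 ncRNAs listed. 6 of them come from miR-17-92 (mmu-miR-17-5p, mmu-miR-18a-5p, mmu-miR-19a-3p, mmu-miR-20a-5p, mmu-miR-19b-3p and mmu-miR-92a-3p) and 3 from miR-106b-25 (mmu-miR-106b-5p, mmu-miR-93-5p and mmu-miR-25-3p), and they are written below without the species prefix. The comparison asked whether their abundance in pEVs differed between PS19 mice, a model of tauopathy, and wild-type (WT) littermates. 8 PS19+/- mice and 8 WT mice of about 9.6 months were used, with equal numbers of males and females, on a shared B6;C3 background and with 1 library per mouse. PS19+/- mice are heterozygous for a transgene that expresses human MAPT with the P301S change from the mouse prion promoter, which is active in neurons but is not restricted to them. The pEVs were precipitated from 200 µL plasma, a procedure that also brings down lipoproteins and soluble protein complexes, so that the miRNAs measured were those of the precipitate.

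miR-17-92 is a polycistron: a single primary transcript is cut into several hairpins, each of which gives a guide strand and a passenger strand. It is induced by MYC, promotes proliferation and survival, and is needed for lung, heart and B cell development. miR-106b-25 is a paralogous cluster in the DNA replication licensing gene Mcm7. A miRNA recognizes its targets mainly by its seed, bases 2 to 8, and the members fall into 4 seed groups: the miR-17 group, known for repressing the cell cycle inhibitor p21 and the pro-apoptotic protein Bim, the miR-18 group, the miR-19 group, and the miR-92 group. In adult blood, miR-92a and miR-25 are known as abundant miRNAs of red blood cells.

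The mature sequences are shown because the seed groups and the near identity of some members decide which reads can be told apart. All 9 members were matched to RefSeq (GRCm38.p6). Each sequence is written 5′ to 3′ with the seed in capitals. The 2 members with the miR-92 seed carried nearly all of the reads:
miR-92a-3p: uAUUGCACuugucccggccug
miR-25-3p: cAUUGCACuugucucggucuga
The 4 members with the miR-17 seed were of middle or low abundance:
miR-17-5p: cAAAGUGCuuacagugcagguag
miR-20a-5p: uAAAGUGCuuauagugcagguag
miR-106b-5p: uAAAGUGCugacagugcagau
miR-93-5p: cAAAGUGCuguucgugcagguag
The members with the miR-19 and miR-18 seeds were close to the limit of detection:
miR-19a-3p: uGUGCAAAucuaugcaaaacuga
miR-19b-3p: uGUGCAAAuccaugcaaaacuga
miR-18a-5p: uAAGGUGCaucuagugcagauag

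Counted position by position from the 5′ end, miR-92a-3p and miR-25-3p shared 18 of 21 bases, and miR-17-5p and miR-20a-5p shared 21 of 23. miR-19a-3p and miR-19b-3p shared 22 of 23, and miR-17-5p shared as many with miR-106a-5p, its counterpart in the X-linked miR-106a-363 cluster. Reads that were shortened or carried an error can therefore have been assigned to the wrong neighbour within these pairs. miR-92a-3p and miR-19b-3p are each made from a hairpin on chromosome 14 and another on chromosome X, and their mature reads cannot be split by locus.

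The miR-17-92 hairpins lie on the plus strand of chromosome 14 at chr14:115043671-115044506 (GRCm38.p6), a span of 836 bases, and all 6 overlap an exon of at least 1 transcript of the lincRNA Mir17hg. The miR-106b-25 hairpins lie on the minus strand of chromosome 5 at chr5:138165321-138165818, a span of 498 bases inside Mcm7. Mir106b is intronic, and Mir93 and Mir25 each overlap an exon of at least 1 Mcm7 transcript.

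The libraries held between 66767724 and 107372555 assigned reads in PS19 and between 36220722 and 117583663 in WT, but mature miRNAs made up only 0.0631% to 7.40% of them. Mature miRNA reads ran from 51467 to 1224303 in PS19 and from 335410 to 2681285 in WT (difference of the mean log2 reads of -1.31, two-sided exact permutation test, p = 0.0954). PS19 replicates 1, 3 and 4 stood apart with 69476, 159397 and 51467 mature miRNA reads, against 428445 or more in the other 5 PS19 libraries. The main values are also given without these 3 libraries. 1 read was worth between 0.389 and 3.83 normalized counts, that is, counts divided by the DESeq2 size factor of the library. A floor of 3 reads corresponded on average to 4.01 normalized counts in PS19 and 2.85 in WT.

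The level of the members spanned 4 seed groups of very unequal size. The 9 miRNAs had 201661 reads over the 16 libraries, and 98.8% of these (199312) carried the miR-92 seed. The miR-17 seed accounted for 1.12% (2250 reads), the miR-19 seed for 97 reads and the miR-18 seed for 2 reads. Members cut from the same primary transcript thus differed widely in the plasma precipitate.

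miR-25-3p was the highest member, with a mean normalized count of 5340 over the 16 libraries (rank 18 of 817 mature miRNAs). miR-92a-3p followed with 3830 (rank 22). The next member, miR-93-5p, reached only 52.1 (rank 136), and miR-20a-5p and miR-17-5p had 31.8 and 14.6. miR-106b-5p had 6.48, close to the floor. miR-19a-3p had 2.90, about the WT floor, and miR-19b-3p had 1.82, below both floors. miR-18a-5p was seen as 2 reads in PS19 replicate 6 alone, a pattern that 27 other ncRNA entries had read for read, and no comparison can rest on it.

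The order was tested between neighbours within libraries, with normalized counts scaled per length to 23 bases (two-sided exact sign-flip permutation test over 16 libraries on the log2 scale, Benjamini-Hochberg adjusted over 8 pairs). On that scale, miR-25-3p exceeded miR-92a-3p in 12 of 16 libraries, by a mean log2 difference of 0.31 ± 0.46 (SD, n = 16, exact p = 0.0155, adjusted p = 0.0208). The step from miR-92a-3p to miR-93-5p was by far the widest, at 6.36 ± 0.74 (SD, n = 16) and present in 16 of 16 libraries (exact p = 3.05e-05, the smallest that 16 libraries allow). From miR-93-5p down to miR-19a-3p, each member was above the next in the mean (exact sign-flip tests, adjusted p from 0.00854 to 0.029), but the 4 mean log2 differences, from 0.66 to 1.19, were smaller than their SDs over libraries, from 0.77 to 1.88, so single libraries can break the order. miR-19a-3p and miR-19b-3p could not be ordered (log2 difference of 0.32 ± 1.28, SD, n = 16, exact p = 0.334). Without the length scaling, miR-25-3p had more reads than miR-92a-3p in 13 of 16 libraries, and the order of the means was the same.

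**Figure D1:**
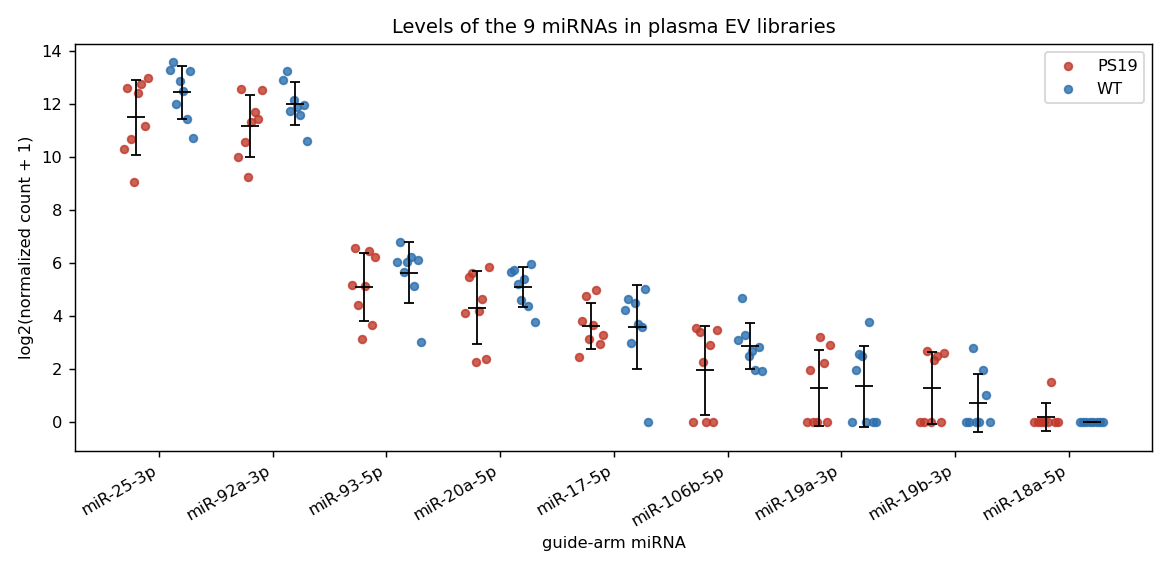
Level of each guide-arm miRNA as log2(normalized count + 1) (vertical axis), in order of abundance (horizontal axis), in 8 PS19 (red) and 8 WT (blue) libraries, with 1 point per library and black bars for mean and SD. miR-25-3p and miR-92a-3p sit far above the other 7 members, and the PS19 and WT points overlap for every member.

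Within the sum of the 9 members, the shares of the miR-92 pair were close in both genotypes. miR-25-3p made up 54.5% ± 8.50 (SD, n = 8) of it in PS19, against 56.7% ± 7.14 (SD, n = 8) for WT, and miR-92a-3p 43.8% ± 8.37 and 42.2% ± 7.15, respectively. The log2 ratio of miR-25-3p to miR-92a-3p reads was 0.33 ± 0.51 (SD, n = 8) for PS19, against 0.43 ± 0.44 (SD, n = 8) for WT, which did not differ beyond the scatter of the libraries (exact permutation p = 0.649, two-sided). The miR-17 seed took 1.57% ± 0.913 (SD, n = 8) of the sum in PS19, against 1.06% ± 0.251 (SD, n = 8) for WT, with miR-17-5p at 0.299% ± 0.279 and 0.127% ± 0.0709, respectively, and these shares were not tested. Of the mature miRNA reads, all 9 members together took 1.53% ± 0.520 (SD, n = 8) in PS19 libraries, against 1.49% ± 0.435 (SD, n = 8) in WT libraries.

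The label of guide arm was checked against the reads of the opposite arm, in the 7 hairpins for which both arms were listed, which leaves out mir-19a and mir-19b-1. By read counts it held for 5 of them and did not for mir-106b, while mir-18a had too few reads to tell. Loading into Argonaute was not measured. The mir-106b hairpin (GRCm38.p6, chr5:138165737-138165818, minus strand, 82 bases) is shown 5′ to 3′ as RNA, with the 5p arm at bases 12 to 32 and the 3p arm at bases 52 to 73 in capitals:
mir-106b hairpin: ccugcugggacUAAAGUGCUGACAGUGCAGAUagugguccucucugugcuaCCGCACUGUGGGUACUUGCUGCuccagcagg
The 3p arm, annotated as the passenger, had 11180 reads over the 16 libraries and the 5p arm had 149, so that the 3p arm took 98.7% of the arm reads (95% exact binomial interval 98.5 to 98.9, which covers counting error only). It was the higher arm in 16 of 16 libraries. PS19 libraries gave 98.9% ± 0.983 (SD, n = 8) and WT libraries 98.8% ± 0.828 (SD, n = 8). The seed of the 3p arm differs from that of the miR-17 group, as its mature form shows:
miR-106b-3p: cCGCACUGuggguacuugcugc

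The other hairpins of the same transcript, mir-93 and mir-25, kept to their labelled arms. mir-93 gave 1153 reads from its 5p arm and 7 from its 3p arm, and the 5p arm was higher in 16 of 16 libraries. mir-25 gave 114874 reads from its 3p arm and 375 from its 5p arm, again with the same arm ahead in 16 of 16. In miR-17-92, the 5p arm led for mir-17 (283 against 25 reads, in 15 of 15 libraries with reads) and for mir-20a (665 against 1). For mir-92a-1, the 3p arm had 84438 reads, which include those of the X-linked locus, and the 5p arm had 13. mir-18a went the other way, with 2 reads of the labelled 5p arm and 24 of the 3p arm, but these are too few in any library to set an order.

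**Figure D2:**
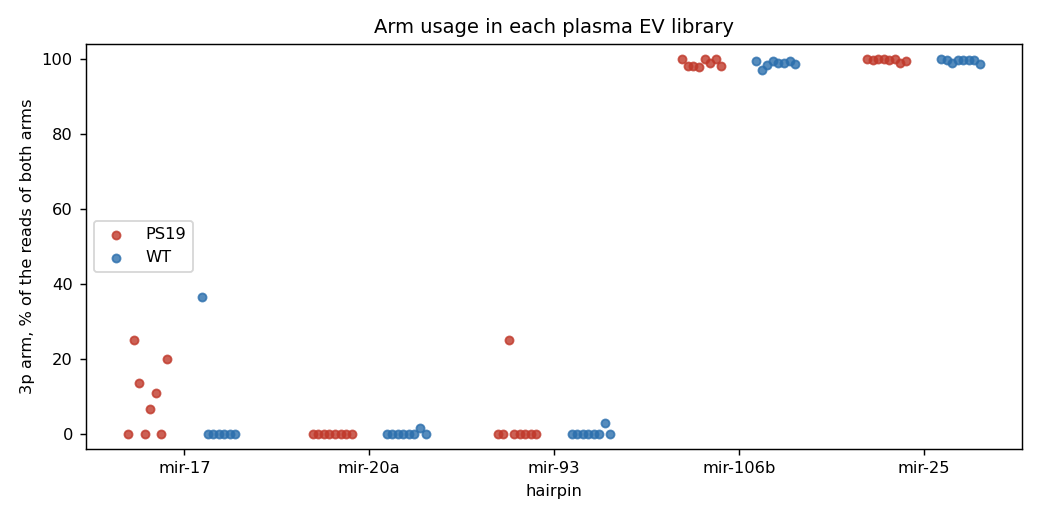
Reads of the 3p arm as a percentage of the reads of both arms (vertical axis) for 5 hairpins (horizontal axis), with 1 point per library that had reads, PS19 in red and WT in blue. mir-106b lies with mir-25 near 100% in every library, between 97.1% and 100% for mir-106b, while mir-17, mir-20a and mir-93 lie lower, with library maxima of 36.4%, 1.64% and 25.0%.

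Some reads were assigned to hairpin entries rather than to mature arms. mir-92a-1, on chromosome 14, had 2239 such reads and the X-linked mir-92a-2 had 85. How the counting tool divides reads between hairpin entries and mature arms is not described in the sources used here, so the locus of these reads is as assigned. Scaled to the mature miRNA total of each library (RPM), mir-92a-1 followed miR-92a-3p over the 16 libraries (Pearson r = 0.82, permutation p = 0.00021, adjusted p = 0.00231 over 11 relations, and Spearman rho = 0.74, permutation p = 0.00173, adjusted p = 0.019). The Pearson r was 0.69 without the 2 libraries farthest from the median, 0.83 within PS19 and 0.80 within WT.

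Between PS19 and WT, 0 of the 9 members were differentially abundant at the raw p of 0.05 that the study used (limma on log2(normalized count + 1)), where 4.85% of all 15159 ncRNAs and 6.24% of the mature miRNAs were called. DESeq2 and edgeR also called 0 of 9, where they called 5.42% and 15.1% of all ncRNAs, and so did the exact permutation test at the same threshold, which called 3.96%. After adjustment over all ncRNAs, limma called nothing at 0.05 (smallest adjusted p = 0.829), while DESeq2 called 113 ncRNAs and edgeR 318. The members' median log2 difference, PS19 minus WT, was -0.54, with 3 values above 0 and 6 below, against -0.25 over mature miRNAs and -0.01 over all ncRNAs. With each library scaled to its mature miRNA total, the members' median was 0.065, that of mature miRNAs 0.0045 and that of all ncRNAs 0.29.

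miR-25-3p ran from 537 through a median of 3872 to 8022 normalized counts in PS19, and from 1662 through 6538 to 12077 in WT. The groups overlapped over most of their range, and the 3 lowest of all 16 values were those of PS19 replicates 4, 1 and 3. The log2 difference was -0.95 (SE 0.578, 95% interval -2.14 to 0.24, limma p = 0.113, adjusted p = 0.829, exact permutation p = 0.141).

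miR-92a-3p, which is known in endothelium as a repressor of vessel growth, ran from 598 through a median of 2658 to 6098 in PS19 and from 1548 through 3862 to 9653 in WT. Again PS19 replicates 4, 1 and 3 were the lowest PS19 libraries, at 598, 1029 and 1502. Its log2 difference was -0.84 (SE 0.519, 95% interval -1.91 to 0.23, limma p = 0.118, adjusted p = 0.829, exact permutation p = 0.119). Each interval takes in 0 as well as a deficit of nearly 2 log2 units or more, so a change of that size could not be told from none with 8 mice per group.

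Among the members with the miR-17 seed, miR-93-5p ran from 7.67 through 34.6 to 93.7 normalized counts in PS19 and from 7.11 through 64.8 to 109 in WT (log2 difference of -0.54, SE 0.586, limma p = 0.368, exact permutation p = 0.391). miR-20a-5p ran from 3.83 through 20.6 to 56.7 in PS19 and from 12.8 through 38.7 to 60.8 in WT (-0.78, SE 0.562, limma p = 0.179, exact permutation p = 0.195). For both, the PS19 median lay below the WT median and the groups overlapped widely. miR-17-5p, cut from the same transcript as miR-20a-5p, ran from 4.41 through 10.1 to 30.3 in PS19 and from 0 through 14.9 to 31.4 in WT (0.038, SE 0.617, limma p = 0.951, exact permutation p = 0.962). WT replicate 8 had no read of miR-17-5p, and without that library the log2 difference was -0.47.

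miR-106b-5p ran from 0 through 5.13 to 10.7 normalized counts in PS19 and from 2.84 through 5.76 to 24.7 in WT (log2 difference of -0.92, SE 0.645, limma p = 0.164, exact permutation p = 0.18), with 3 reads or fewer in 4 PS19 and 2 WT libraries. miR-106b-3p, the arm that carried the reads, ran from 169 through 512 to 602 in PS19 and from 208 through 691 to 1344 in WT (-0.64, SE 0.469, limma p = 0.181, exact permutation p = 0.137, and -0.38 without PS19 replicates 1, 3 and 4). WT replicate 8 lay below 7 of the 8 PS19 libraries, so the groups overlapped for this arm too. The log2 ratio of miR-106b-3p to miR-25-3p reads was -2.85 ± 0.92 (SD, n = 8) for PS19, against -3.16 ± 0.33 (SD, n = 8) for WT (exact permutation p = 0.392).

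miR-19a-3p had 27 reads in 4 PS19 libraries and 37 in 4 WT libraries, and miR-19b-3p had 21 reads in 4 PS19 libraries and 12 in 3 WT libraries. Their log2 differences of -0.061 and 0.55 (exact permutation p = 0.935 and 0.413) had 95% intervals from -1.50 to 1.38 and from -0.71 to 1.81, so a difference was not detectable at this depth.

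The scaling and the 3 PS19 libraries with few miRNA reads moved these values. Scaled to mature miRNA totals, miR-92a-3p differed by 0.054 (95% interval -0.74 to 0.84, exact permutation p = 0.838) and miR-25-3p by -0.056 (-0.93 to 0.82, exact permutation p = 0.866) on the log2 scale. On that scale miR-20a-5p was at 0.065, miR-93-5p at 0.33, miR-17-5p at 0.88 and miR-106b-5p at -0.42, and 0 of 9 members were called where 7.51% of all ncRNAs were. With the authors' size factors but without PS19 replicates 1, 3 and 4, miR-92a-3p differed by -0.098 (-1.03 to 0.83), miR-25-3p by -0.060 (-1.08 to 0.96) and miR-93-5p by -0.027. Scaled to all assigned reads instead, the pair lay farther from 0 than with the size factors, at -1.22 for miR-25-3p and -1.11 for miR-92a-3p. The miRNA totals and the removal of the 3 libraries thus brought the pair close to 0 and the library totals did not, whereas miR-20a-5p stayed at -0.59 and miR-106b-5p at -0.89 without those libraries, with 0 of 9 members called where 4.15% of ncRNAs were.

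**Figure D3:**
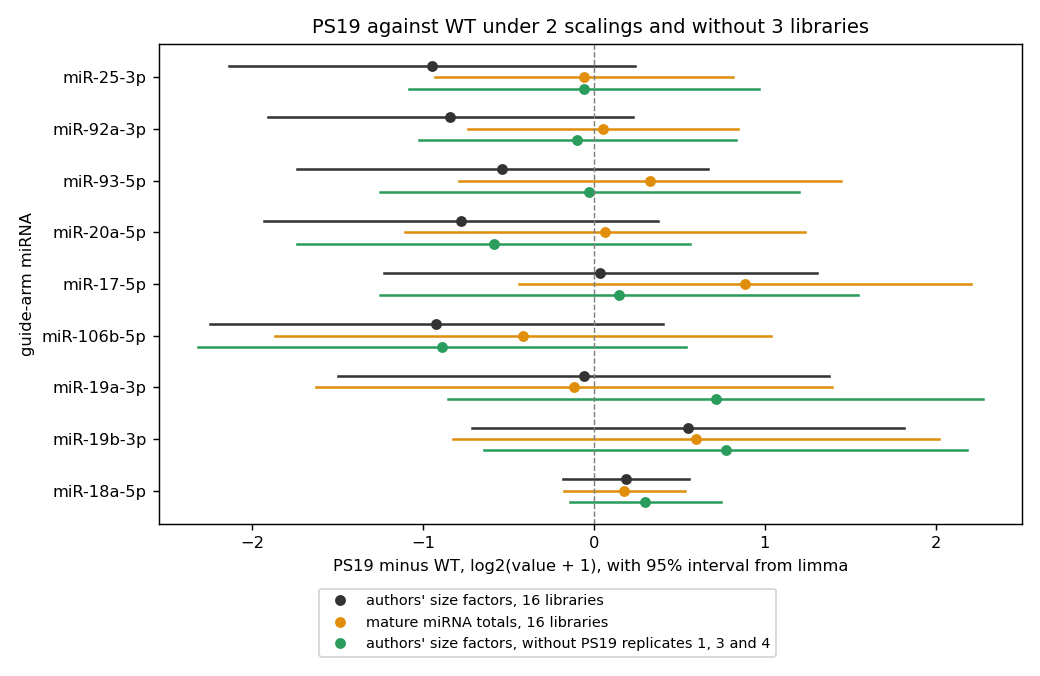
Difference between PS19 and WT on the log2(value + 1) scale (horizontal axis, points) with 95% intervals from limma (lines) for each member (vertical axis), with the authors' size factors (black), with mature miRNA totals (orange) and without PS19 replicates 1, 3 and 4 (green). All 27 intervals take in 0, and the points of miR-25-3p and miR-92a-3p move from -0.95 and -0.84 to values between -0.098 and 0.054.

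All PS19 libraries and WT replicates 2 and 4 have names that begin with the same letter, and the labels do not say what the letter stands for. Between these 8 and 2 libraries, the log2 difference was -1.71 for miR-25-3p (limma p = 0.0988, exact permutation p = 0.0889) and -1.52 for miR-92a-3p (limma p = 0.121, exact permutation p = 0.133), and 0 of 9 members were called where 4.62% of ncRNAs were. miR-106b-3p was at 820 and 1024 normalized counts in the 2 WT libraries, above all 8 PS19 libraries (-1.20, limma p = 0.161, exact permutation p = 0.0444), while the other 6 WT libraries ran from 208 to 1344. The letter and the genotype cannot be told apart for those 6 libraries.

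Of 33 related entries (passenger arms, hairpin entries, the X-linked miR-106a-363 cluster and other miRNAs with the miR-92 seed), 23 were listed and 12 of these had at least 16 reads. 2 of the 23 were called, both lower in PS19, against 4.85% of all ncRNAs in either direction and 2.13% in the lower direction. Among the 817 mature miRNAs, 6.24% were called in either direction, 6 of them higher and 45 lower. The 2 related entries are shown because they were the entries of these clusters that passed the raw threshold:
miR-18a-3p: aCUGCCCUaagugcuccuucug
miR-363-3p: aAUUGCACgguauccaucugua
miR-18a-3p, the passenger of mir-18a, had 0 reads in all 8 PS19 libraries and 24 reads in 5 of 8 WT libraries (8, 4, 4, 1 and 7 reads in WT replicates 1, 3, 4, 5 and 7). Its WT mean of 3.46 normalized counts lay below the 3-read floor of the PS19 libraries, so no fold is given. PS19 minus WT was -1.51 on the log2(normalized count + 1) scale (SE 0.535, limma p = 0.00876, adjusted p = 0.829, exact permutation p = 0.0256). Among the libraries that share the letter it was -1.42 (limma p = 0.00692, exact permutation p = 0.4). There the reads were the 4 of WT replicate 4, and WT replicate 2 had 0. The 5p arm, which is the labelled guide, had 2 reads in PS19 and 0 in WT.

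miR-363-3p, which shares its seed with miR-92a-3p and miR-25-3p, had 19 reads in 2 PS19 libraries and 50 reads in 7 WT libraries. Its log2 difference was -1.42 (SE 0.646, limma p = 0.0373, adjusted p = 0.829, exact permutation p = 0.0536), and it was 0.066 among the libraries that share the letter. It was -0.97 (SE 0.729) without PS19 replicates 1, 3 and 4. The call was lost there. It was also lost with DESeq2, edgeR, library totals, mature miRNA totals and the replicate block. The log2 differences in those settings ran from -1.42 (replicate block) to -1.22 (library totals). With mature miRNA totals the limma p was 0.0503, while the exact permutation p of 0.0362 passed 0.05. The remaining relatives did not pass: miR-92b-3p, also with the miR-92 seed, had 686 reads and a log2 difference of -0.56 (exact permutation p = 0.176), miR-32-5p was at -0.45 (exact permutation p = 0.499), and miR-25-5p, the passenger of mir-25, was at -1.15 (exact permutation p = 0.167). miR-106a-5p and miR-20b-5p, the X-linked counterparts of miR-17-5p and miR-20a-5p, had 8 and 19 reads in all.

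miR-25-3p was then set beside its cluster mates and beside miRNAs of defined cell types, as RPM on the log2 scale over the 16 libraries, with 11 relations in all. Such values share their denominator within a library, and on normalized counts r was higher in all 11 relations, from 0.37 to 0.96. miR-25-3p rose and fell with miR-93-5p, its neighbour in Mcm7 (Pearson r = 0.75, permutation p = 0.00098, adjusted p = 0.00539, Spearman rho = 0.70, permutation p = 0.00355, adjusted p = 0.0195), and the Pearson r was 0.60 without the 2 libraries farthest from the median, 0.72 within PS19 and 0.84 within WT. With miR-106b-3p the relation did not pass adjustment (r = 0.50, permutation p = 0.0477, adjusted p = 0.0655, rho = 0.48, permutation p = 0.0619). miR-92a-3p and miR-25-3p had r = 0.69 (permutation p = 0.00401, adjusted p = 0.011) but rho = 0.28 (permutation p = 0.286), and r = 0.19 without the 2 farthest libraries, so that relation rested on those libraries. miR-17-5p and miR-20a-5p, from 1 transcript, had r = 0.42 (permutation p = 0.106, adjusted p = 0.129, rho = 0.21, permutation p = 0.434).

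With miR-486a-5p, an abundant miRNA of red blood cells, miR-25-3p had r = 0.71 (permutation p = 0.00367, adjusted p = 0.011) and rho = 0.54 (permutation p = 0.0348, adjusted p = 0.0956), and r was 0.42 without the 2 farthest libraries, 0.76 within PS19 and 0.73 within WT. With miR-451a, which is made almost exclusively in the red cell lineage, r was 0.58 (permutation p = 0.02, adjusted p = 0.044) and rho 0.60 (permutation p = 0.0147, adjusted p = 0.0539), with 0.46 without the 2 farthest libraries, 0.79 within PS19 and 0.59 within WT. Only the Pearson values passed adjustment. For miR-92a-3p the same relations gave r = 0.55 with miR-486a-5p (adjusted p = 0.0557, permutation) and r = 0.32 with miR-451a (adjusted p = 0.243, permutation), where normalized counts gave 0.91 and 0.75. With miR-122-5p, the main hepatocyte miRNA, r was -0.50 for miR-25-3p (permutation p = 0.0454, adjusted p = 0.0655) and -0.098 for miR-92a-3p (permutation p = 0.717), and on normalized counts both turned positive, at 0.37 and 0.56.

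**Figure D4:**
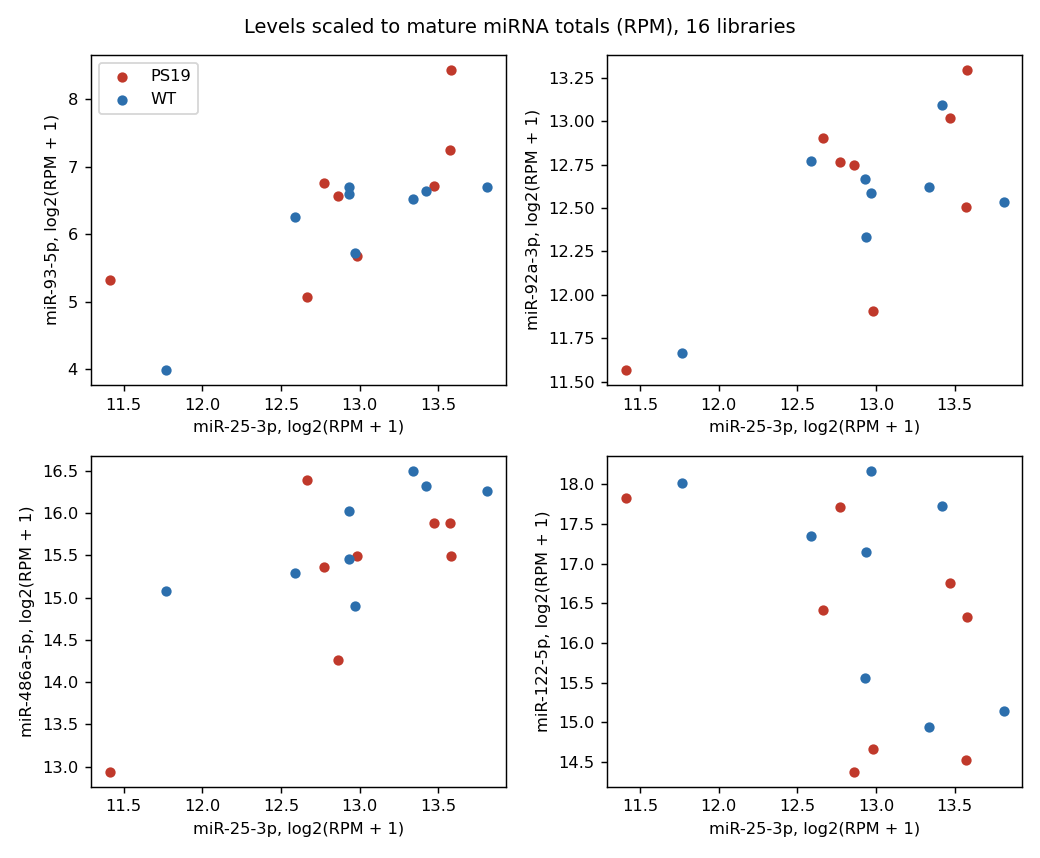
miR-93-5p, miR-92a-3p, miR-486a-5p and miR-122-5p (vertical axes) against miR-25-3p (horizontal axes), each as log2(RPM + 1), where RPM is scaled to mature miRNA reads, with 1 point for each of the 16 libraries, PS19 in red and WT in blue. The points rise together for miR-93-5p (r = 0.75, and 0.60 without the 2 farthest libraries) and miR-486a-5p (0.71 and 0.42), while for miR-92a-3p r went from 0.69 to 0.19 without the 2 libraries at the far left.

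Of the red blood cell miRNAs, miR-486a-5p was low on normalized counts in the same 3 PS19 libraries as the miR-92 pair. It had 1549, 4298 and 4717 in PS19 replicates 4, 3 and 1 and 16444 or more in all other libraries. As RPM, PS19 replicate 1 was not low. There miR-92a-3p and miR-25-3p were at their PS19 maxima of 10075 and 12234, and miR-486a-5p at 46203, near its PS19 median of 46223. PS19 replicate 3 had 6870 and 7441 RPM for the pair, near their PS19 medians, but 19662 for miR-486a-5p. PS19 replicate 4 was the lowest PS19 library for all 3. On normalized counts the low values did not hold for the whole list: miR-16-5p was at 132 in PS19 replicate 3, above the PS19 median of 128, and miR-144-5p had a log2 difference of 0.36. All 6 of the list were present, and their summed normalized counts ran from 3532 through 64557 to 88346 in PS19 and from 34078 through 75848 to 186707 in WT. 2 of the 6 were called, where 4.85% of all ncRNAs were, both lower in PS19 (miR-486a-5p by a log2 difference of -1.41, limma p = 0.041, exact permutation p = 0.0791, and miR-486b-5p, whose reads are nearly the same), and none was without PS19 replicates 1, 3 and 4 (median of the 6 of -0.017), with mature miRNA totals (median of 0.16), with library totals, with DESeq2 or with edgeR. Within the shared letter (4.62% called), 3 of the 6 were called, all lower (median of -1.87). With the smaller pseudocount or the replicate block it was 2 of 6, both lower, where 761 and 685 of all 15159 ncRNAs were called. In the main fit (4.85% called), 1 of 2 of the hepatocyte list was called lower (miR-122-5p) and 1 of 3 of the muscle list higher (miR-206-3p). Platelets and myeloid cells had 0 of 4 and neurons 0 of 3, and no marker was at 0 in all libraries. These counts moved with the setting. Without the 3 libraries, where 4.15% of ncRNAs were called, hepatocytes had 0 of 2 and neurons 1 of 3, lower. With mature miRNA totals (7.51% called) hepatocytes had 0 of 2, muscle 2 of 3 higher, and platelets and myeloid cells 1 of 4 higher. With DESeq2 (5.42% called) hepatocytes had 0 of 2, muscle 2 of 3 higher, and platelets and myeloid cells 1 of 4 lower. Muscle had 0 of 3 with library totals (2.91% called) and 0 of 3 among the libraries that share the letter (4.62% called), where 2 of its 3 values were below 0 and hepatocytes had 0 of 2. The exact permutation p was 0.0805 for miR-122-5p, 0.0903 for miR-206-3p and 0.0169 for miR-126a-3p, which limma did not call. The part of any of these in the members' values was not tested. In bulk plasma, fewer vesicles or cells of a type and less RNA in each cannot be told apart.

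The miRNAs whose profile was most like the mean standardized profile of the 9 members were found among the 214 mature miRNAs that averaged 10 or more normalized counts. On log2(normalized count + 1) these were miR-140-3p (Pearson r = 0.92 over 16 libraries), miR-1839-5p (0.86), miR-340-5p (0.84), miR-532-5p (0.83) and miR-148b-3p (0.83), where the median candidate had 0.56. Each member had the same weight in that profile, including miR-18a-5p, miR-19a-3p and miR-19b-3p with very few reads, so it is a description only. On log2(RPM + 1) they were miR-1839-5p (0.76), miR-140-3p (0.72), miR-107-3p (0.69), miR-484 (0.68) and miR-148b-3p (0.67), where the median candidate had 0.18. 3 of the 5 stood in both lists.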

How the data were processed

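Small RNA libraries of pEVs from 8 PS19+/- and 8 WT mice were compared, 1 library per mouse. The authors aligned single-end reads of NEBNext small RNA libraries with STAR (2.5.3a) to mm10, assigned them to ncRNAs with COMPSRA and normalized them with DESeq2 (1.42.1), per the labels and the study's methods. The deposited signal of each library is the count divided by its size factor. The deposited table also holds the authors' own DESeq2 results: a mean signal, a log2 fold change with its standard error, a Wald score and each p-value, none of which was used. The worth of 1 read, which is the lowest value above 0 in a library, was used to turn values back into reads, and 100% of them came out whole within 1e-06.

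limma 3.58.1 was run on log2(normalized count + 1) (lmFit, eBayes with a trend; R 4.3.3) over all 15159 ncRNAs, at the study's raw p of 0.05 and with Benjamini-Hochberg adjustment, beside a two-sided exact permutation test of 8 against 8 libraries. Correlations used 100000 permutations. The alternatives were edgeR 4.0.16 and DESeq2 1.42.0 on the recovered reads, which called 2295 and 822 ncRNAs, as well as other scalings, a filter, a pseudocount of 0.1, a replicate block, the library letter and each library left out. Leaving out libraries under 200000 mature miRNA reads was added after seeing the data. The members and lists were chosen with earlier results of these data known. All 9 members and the 5 most alike miRNAs on each scale are named, but only some of the 23 related entries. Sequences and positions are from RefSeq and the annotation of GRCm38.p6. The p-values of the genotype and order tests are set against the spread between libraries, with 1 library per mouse. Differences between mice and between library preparations cannot be told apart in them. The p-values of the correlations test association over the libraries. The limma, edgeR and DESeq2 steps were tested on simulated data.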

Additional observations from a re-analysis of the deposited data

Results flagged for a closer look

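In 3 of 22 groups of 8 libraries that were tested, 1 library lay farther from the rest than Dixon's 95% limit for the gap over the range. The chance rate of about 1 in 20 holds for normally distributed values. It does not apply to untransformed counts with many zeros, so no expected number is given. miR-19a-3p reached 12.7 normalized counts in WT replicate 6 (gap over range 0.617). miR-106b-5p reached 24.7 in WT replicate 2, the WT library with the most mature miRNA reads (0.728). miR-18a-5p was at 1.84 in PS19 replicate 6, which had its only 2 reads, so that its ratio of 1 was fixed.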

How the results depend on the processing

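The number of ncRNAs called over the whole table was 735 (412 higher in PS19, 323 lower). It was 2295 with edgeR, 441 with library totals (145 higher, 296 lower), 1138 with mature miRNA totals (1039 higher, 99 lower) and 230 with ncRNAs averaging 10 or more normalized counts (171 higher, 59 lower), and 567 to 846 with 1 library left out. DESeq2 called 822 (70.7% higher), and the libraries that share a letter gave 644 (21.6% higher). The 9 members gave 0 calls under all 9 alternatives and 0 to 1 with 1 library left out, the 1 being miR-25-3p without WT replicate 8 (log2 difference of -1.20, unadjusted p = 0.0489 from limma, not an exact test). The 2 calls among related entries became 1 with DESeq2, library totals, mature miRNA totals or without the 3 libraries with few miRNA reads, 7 with edgeR, 0 of 5 tested with the filter, and 1 to 3 with 1 library left out. Among the libraries that share a letter, 3 of 19 tested were called, all lower in PS19, where 4.62% of ncRNAs were called in either direction. Of the 2 calls, miR-363-3p was the less stable: its call was lost under 7 of 8 alternatives that gave a value, among them DESeq2, edgeR, both other scalings and the replicate block, and when any of 11 of the 16 libraries was left out (PS19 replicates 1, 3, 4, 5, 6 and 7, and WT replicates 3, 5, 6, 7 and 8; log2 difference from -1.76 to -1.26 over all 16). With mature miRNA totals its exact permutation p was 0.0362.

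The log2 difference of miR-17-5p changed sign to -0.19 with DESeq2, -0.44 with edgeR, -0.31 with library totals and -0.95 among libraries of 1 letter (-0.47 to 0.24 with 1 library left out). miR-19a-3p reached 0.71 without the 3 libraries (-0.34 to 0.29 with 1 library left out). With mature miRNA totals the sign changed for miR-20a-5p (0.0653), miR-92a-3p (0.0535), miR-93-5p (0.33) and miR-106b-3p (0.25), and within 1 letter for miR-363-3p (0.0661). The cause was not tested. The filter left out the members of low level.

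The labels do not say that equal replicate numbers mark related mice. Deviations of same-numbered libraries over 219 miRNAs had a Pearson r of 0.52 for replicate 2 and of -0.17 to 0.0033 for the other 7 pairs, so the numbers were not taken as pairs. With the replicate block, 685 ncRNAs, 0 members and 1 related entry were called. Depth limits miR-18a-5p, miR-19a-3p, miR-19b-3p and miR-106b-5p, which had 3 reads or fewer in many libraries.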
